A study of Homo sapiens with 6 samples.

Results

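The interferon-stimulated genes described here were 47 genes chosen by symbol from a list of transcripts known to be induced by interferons, of 60748 genes measured by RNA sequencing. The cells were LX-2, an immortalised line of human hepatic stellate cells, compared in 2 stable derivatives. LX-2Vector cells (n = 3 libraries) carried the empty lentiviral vector, and LX-2FAP cells (n = 3 libraries) carried the same vector with the coding sequence of FAP, the gene for fibroblast activation protein α, a cell-surface serine protease. Per the study's methods the vector drives its insert from a ubiquitin promoter and also encodes EGFP and puromycin resistance, so both lines had been transduced with lentivirus and selected in puromycin. How many clones each line holds was not given in the sources used here. All cells were grown in DMEM with 10% fetal bovine serum for 24 h, and the labels name no interferon treatment. The labels number the libraries within a group and do not say that they came from separate cultures, so the p-values below measure the spread between these libraries, which may be technical.

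Interferons are secreted proteins, and many of them are released by cells that sense viral nucleic acid. Type I interferons bind the receptor IFNAR1/IFNAR2, whose kinases JAK1 and TYK2 phosphorylate STAT proteins. STAT2 and IRF9 are subunits of the complex ISGF3, which binds the interferon-stimulated response element (ISRE) in the promoters of interferon-stimulated genes. The products sense foreign RNA and DNA, degrade RNA, block translation of viral messages, trap virions at membranes or carry the signal further. Many of the genes are also transcribed at a low level without added interferon, and hepatic stellate cells are among the liver cells that respond to these cytokines.

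Total counts ran from 17355700 to 26352060 per library. FAP itself stood at 1.85, 2.39 and 2.59 counts-per-million after TMM normalization (CPM) in LX-2Vector replicates 1, 2 and 3 and at 620.1, 842.8 and 706.7 CPM in LX-2FAP replicates 1, 2 and 3, which matched the labels. Along the first principal component of all genes (36.2% of the variance), replicate 1 of LX-2FAP cells was closest to the controls, at 1.91 against 25.4 and 17 for replicates 2 and 3. The hepatocyte markers were at or near 0 (TTR at 0 counts in every library, ALB at 1 to 3), and none of the 5 tested of 8 leukocyte markers was called by edgeR, with 1 higher at an unadjusted p under 0.05. PTPRC was at 97 to 130 counts, LYZ at 88 to 142, CD14 at 53 to 86, CSF1R at 42 to 69 and ITGAM at 27 to 47, and CD3E and CLEC4C had at most 10 counts in any library. Of the 4 tested of 5 endothelial markers, VWF was called lower, at 31 to 74 counts in LX-2Vector libraries and 12 to 35 in LX-2FAP libraries, and the part of this in the results below was not tested. Of the stellate cell markers, COL1A1, COL3A1 and PDGFRB were called lower in LX-2FAP cells and VIM higher, while LRAT, which marks vitamin A-storing stellate cells, was at 0 counts in every library, DES at no more than 1 and ACTA2 at 49 to 91.

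Of the 47 genes, 44 had enough counts to be tested with edgeR's quasi-likelihood test, and those with an adjusted p under 0.05 (Benjamini-Hochberg over all 18275 genes tested) are named called genes. In LX-2FAP cells 9 of the 44 were called lower (OAS1, OAS2, OAS3, IFIH1, DHX58, GBP2, STAT2, XAF1 and IFI44L) and 1 was called higher (IFI44). Over all tested genes 2.73% were called lower and 2.57% higher. The changes were small: the log2 fold change of LX-2FAP over LX-2Vector had a median of -0.15 over the 44 genes, with quartiles of -0.33 and -0.01, against a median of -0.01 over all tested genes. It was negative for 33 of the 44 genes (75%) and for 53% of all tested genes. The groups did not overlap, with LX-2FAP lower, for 15 of the 44 genes and, with LX-2FAP higher, for 3 of them. Over all tested genes these shares were 13.4% and 13%. At an unadjusted p under 0.05, 20 of the genes were lower and 3 higher, against 11.6% and 10.5% of all tested genes.

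The number of calls depended on single libraries. Without LX-2FAP replicate 1, 18 of the genes were called lower, while 5.62% of all genes were. Without LX-2FAP replicate 2 or LX-2FAP replicate 3 none was called lower by edgeR, and 17 were lower at an unadjusted p under 0.05 in each case. In these fits the share of all genes called lower was itself down to 0.341% and 0.0638%. The share of all genes at an unadjusted p under 0.05 was not computed for them, so the 17 have no background beside them. Without LX-2Vector replicate 1, 2 or 3 the number called lower was 1 (OAS3), 3 (OAS1, OAS3 and XAF1) and 1 (OAS3), while 0.96% to 1.8% of all genes were called lower. The DESeq2 Wald test also called 9 lower, without OAS2 and XAF1 and with GBP1 and PARP14, and limma-trend on log2 FPKM called none (with a pseudocount of 1, 22 were lower at an unadjusted p under 0.05). That test called 2 of all 18275 genes, so the count of 0 says nothing particular about these genes. The share of all genes at an unadjusted p under 0.05 was not computed for limma-trend. The 9 genes called lower kept a negative log2 fold change under all 15 alternatives tried. This is no separate result, since they were called from these same libraries and their groups did not overlap.

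**Figure D1:**
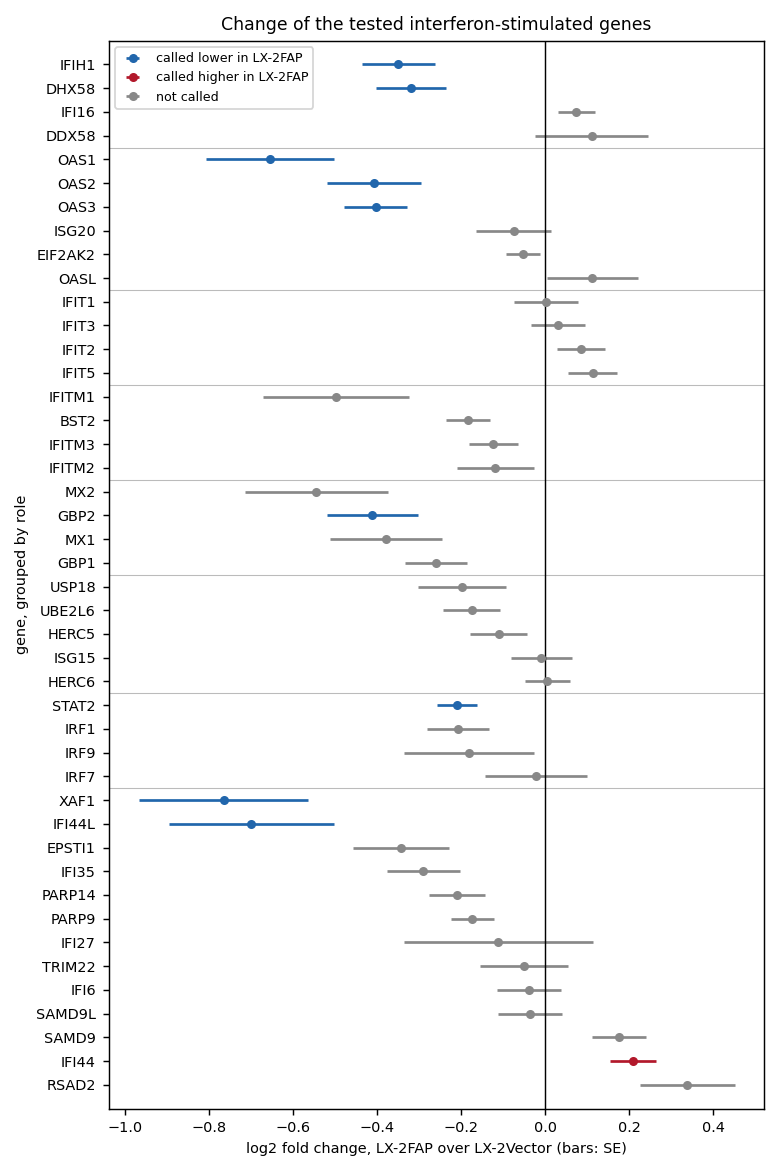
Log2 fold change of LX-2FAP over LX-2Vector (x axis) for the 44 tested genes, grouped by role from the sensors at the top to the other induced proteins at the bottom; points are edgeR estimates, bars are standard errors, and colour gives the call. Most points lie left of 0, between -0.77 (XAF1) and 0.34 (RSAD2), and the IFIT genes lie at or just right of 0.

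The promoters were searched for the motif that ISGF3 binds, to show what these genes share in sequence. RefSeq (GRCh38.p14) promoter windows, 250 bases before to 50 after a gene's start, were at hand for 37 of the 47 genes, DDX58 being listed there as RIGI. DHX58, OAS2, OASL, IFIT2, IFITM2, MX2, GBP2, USP18, IRF7 and TRIM22 had no window there. The ISRE core GAAANNGAA, read on both strands, was found in 26 of the 37 (70.3%) and in 9.86% of all 27305 genes with a window. The GAS element TTCNNNGAA, a motif of interferon γ responses that reads the same on both strands, was found in 11 of the 37 (29.7%) and in 9.38% of all genes. The ISRE core was present for 3 of the 6 called-lower genes with a window (OAS3, IFIH1, IFI44L) (50%) and for 22 of the 30 that were not called (73.3%). A match is a string of letters, not a measured binding site, and the absence of one says only that these letters were not in this window. The following stretches show the match in capitals (read as the reverse complement where it lies on the other strand) for 3 genes called lower, the 1 called higher and 4 that were not called.
OAS3, chr12:112938442-112938490, plus strand: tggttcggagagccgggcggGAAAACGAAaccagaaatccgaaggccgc
IFIH1, chr2:162318677-162318725, minus strand: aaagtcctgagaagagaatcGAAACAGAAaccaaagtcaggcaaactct
IFI44L, chr1:78620355-78620403, plus strand: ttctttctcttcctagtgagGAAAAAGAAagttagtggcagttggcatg
IFI44, chr1:78649752-78649800, plus strand: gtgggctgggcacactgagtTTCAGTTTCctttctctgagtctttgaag
ISG15, chr1:1013376-1013424, plus strand: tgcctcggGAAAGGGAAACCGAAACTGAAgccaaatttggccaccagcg
IFIT3, chr10:89332459-89332507, plus strand: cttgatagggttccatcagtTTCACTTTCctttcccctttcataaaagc
BST2, chr19:17405726-17405774, minus strand: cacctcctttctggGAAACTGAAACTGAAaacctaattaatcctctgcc
RSAD2, chr2:6865786-6865834, plus strand: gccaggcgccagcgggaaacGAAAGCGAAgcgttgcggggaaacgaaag
In ISG15 and BST2 several matches overlap in 1 run of capitals. The first base of the match nearest the middle of each stretch lay at -12 from the start site in OAS3, -21 in IFIH1, -73 in IFI44L, -17 in IFI44, -101 in ISG15, -50 in IFIT3, -124 in BST2 and -79 in RSAD2.

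Transcript levels without added interferon spanned a wide range. In LX-2Vector cells, levels per length (FPKM) ran from 54.7 ± 2.76 for IFI16 to 0.0188 ± 0.00913 for CMPK2 (SD, n = 3). The 5 genes with the highest mean over all 6 libraries were IFI16, SAMD9, ISG15, BST2 and IFIT3. IFI16, a sensor of DNA, stood at 51.8, 55.2 and 57.2 FPKM in LX-2Vector replicates 1 to 3 and at 58.7, 55.2 and 55.4 FPKM in LX-2FAP replicates 1 to 3. ISG15, the ubiquitin-like modifier, stood at 49.0, 55.1 and 44.1 FPKM against 51.1, 47.1 and 45.6 FPKM. The ranges of both genes overlapped between the groups. Within LX-2Vector cells ISG15 (49.4 ± 5.50 FPKM) and SAMD9 (48.8 ± 4.37 FPKM) differed by less than their spread between libraries. BST2 (41.6 ± 0.931 FPKM) and IFIT3 (38.4 ± 1.69 FPKM) came next.

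The changes are given by level class, as a description without a test. Among the 17 genes above 10 FPKM in LX-2Vector cells, 1 was called lower and 1 higher and the median log2 fold change was -0.04. Among the 20 genes between 1 and 10 FPKM, 5 were called lower, 17 were negative and the median was -0.19. Among the 7 tested genes under 1 FPKM (of 10), 3 were called lower, 6 were negative and the median was -0.54. The same classes were not computed over all genes, so whether these differences between classes are particular to these genes was not tested. Standard errors were wider for some low genes (0.20 for XAF1 and IFI44L, against 0.04 for IFI16).

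**Figure D2:**
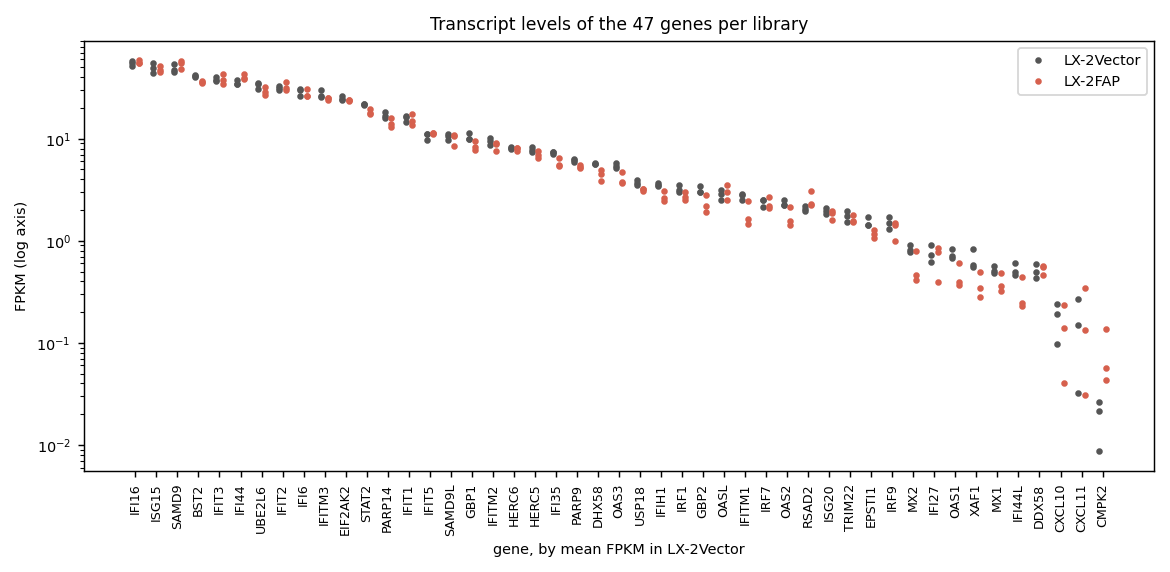
FPKM of the 47 genes in each library (y axis, log scale), ordered by the mean in LX-2Vector cells, with LX-2Vector libraries in grey and LX-2FAP libraries in red. The 2 groups lie close together at the high end (IFI16, ISG15, SAMD9), and LX-2FAP points fall below the grey ones for several genes in the low part, such as OAS1, XAF1 and IFI44L.

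Among the 4 nucleic acid sensors, the 2 that were called lower were IFIH1 and DHX58, and IFI16 and DDX58 were not called. IFIH1 (ENSG00000115267, MDA5, which senses long double-stranded RNA) stood at 18.0, 18.6 and 17.4 CPM in LX-2Vector replicates 1 to 3 and at 15.8, 12.6 and 13.7 CPM in LX-2FAP replicates 1 to 3. Every LX-2FAP library lay below every LX-2Vector library, and the log2 fold change was -0.35 (SE 0.09, adjusted p = 0.0314 by edgeR). DHX58 (ENSG00000108771, LGP2, a related helicase that tunes RNA sensing) stood at 21.6, 21.8 and 21.3 CPM against 19.1, 15 and 17.4 CPM. The groups again did not overlap, with a log2 fold change of -0.32 (SE 0.08, adjusted p = 0.0372 by edgeR). After removal of a smooth trend of each library on the GC content of genes (GC trend), DHX58 was no longer called (log2 fold change -0.20, adjusted p = 0.139 by edgeR). In that fit the median log2 fold change over all tested genes was 0.03, against -0.01 in the main fit. DDX58, which encodes RIG-I, the third helicase of this family, had a log2 fold change of 0.11 (SE 0.13) and IFI16 of 0.07 (SE 0.04), both with overlapping groups.

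Of the 6 enzymes that act on or are activated by RNA, the 3 oligoadenylate synthetases OAS1, OAS2 and OAS3 were called lower, and OASL, EIF2AK2 and ISG20 were not called. The synthetases make 2-5A, the second messenger that switches on RNase L. OAS1 (ENSG00000089127, GRCh38 chromosome 12, 112906777 to 112933222) stood at 8.82, 9.17 and 10.7 CPM in LX-2Vector replicates 1 to 3 and at 7.93, 4.84 and 5.16 CPM in LX-2FAP replicates 1 to 3. Its log2 fold change was -0.65 (SE 0.15, adjusted p = 0.0244 by edgeR), and LX-2FAP replicate 1 lay much nearer to the controls than replicates 2 and 3. OAS3 (ENSG00000111331, chromosome 12, 112938352 to 112973249), the most abundant of the 3 per length, stood at 98.1, 92.0 and 103.6 CPM against 85.6, 67.7 and 68.3 CPM. Its log2 fold change of -0.40 (SE 0.07) had the lowest edgeR adjusted p of the 44 genes, 0.00957, and it was called under 11 of 15 alternatives, more than any other member. OAS2 (ENSG00000111335, chromosome 12, 112978395 to 113011723) stood at 25.2, 25.2 and 28.0 CPM against 24.5, 16.4 and 17.6 CPM (log2 fold change -0.41, SE 0.11, adjusted p = 0.0466 by edgeR). The gap between the groups was narrow for OAS2, since LX-2FAP replicate 1 was just below the lowest control, and OAS2 was not called after removal of the GC trend (adjusted p = 0.0656). Without LX-2FAP replicate 1 its log2 fold change was -0.61. EIF2AK2, the kinase PKR that halts translation, differed little (log2 fold change -0.05, SE 0.04), as did the exonuclease gene ISG20 (-0.07, SE 0.09). OASL, whose product lacks synthetase activity, had a log2 fold change of 0.11 (SE 0.11).

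None of the 4 IFIT genes, a family whose products form complexes that bind foreign RNA and block its translation, was called. IFIT3 stood at 191.4, 185.4 and 202.1 CPM in LX-2Vector replicates 1 to 3 and at 221.9, 176.2 and 192.1 CPM in LX-2FAP replicates 1 to 3. The LX-2FAP libraries thus lay on both sides of the controls. Log2 fold changes were 0.00 (SE 0.07) for IFIT1, 0.09 (SE 0.06) for IFIT2, 0.03 (SE 0.06) for IFIT3 and 0.11 (SE 0.06) for IFIT5. The sign for IFIT1 turned under several alternatives, among them library size alone (-0.03), removal of a GC trend (-0.01) and both limma-trend fits (-0.04 in each). Without LX-2FAP replicate 1, IFIT1 was at -0.10 and IFIT3 at -0.07, while IFIT2 was at 0.01 and IFIT5 at 0.12. Part of the IFIT2 exons is shared with the annotated locus AL353751.1 (8.68% of bases), so reads there could have been assigned to either.

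The 4 restriction factors of membranes all had negative log2 fold changes, and none was called. BST2 (ENSG00000130303), the tetherin that holds budding virions at the cell surface, stood at 46.7, 44.3 and 45.2 CPM in LX-2Vector replicates 1 to 3 and at 39.3, 41.0 and 40.0 CPM in LX-2FAP replicates 1 to 3. The groups were apart and the LX-2FAP libraries were close to each other, with a log2 fold change of -0.18 (SE 0.05), just short of a call (adjusted p = 0.0529 by edgeR). After removal of the GC trend the BST2 value was -0.08 (adjusted p = 0.384). IFITM1, which restricts virus entry at the plasma membrane, stood at 4.16, 4.62 and 4.80 CPM against 4.17, 2.45 and 2.77 CPM. Its groups overlapped through LX-2FAP replicate 1 (log2 fold change -0.50, SE 0.17, adjusted p = 0.101 by edgeR). Without LX-2FAP replicate 1 the IFITM1 value was -0.78. IFITM2 and IFITM3 both had a log2 fold change of -0.12, which became -0.03 and -0.02 after removal of the GC trend. Counts of IFITM1 and IFITM2 are uncertain, because 32.5% of the annotated exon bases of IFITM1 and 22.7% of those of IFITM2 are shared between them, and 21.3% of the IFITM3 exon bases overlap a locus on the other strand.

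The 4 interferon-induced GTPases all had negative log2 fold changes, from -0.54 to -0.26, and GBP2 was the 1 called. GBP2 (ENSG00000162645), a guanylate-binding protein that coats intracellular pathogens, stood at 21.7, 21.5 and 24.6 CPM in LX-2Vector replicates 1 to 3 and at 20.5, 14.0 and 16.0 CPM in LX-2FAP replicates 1 to 3. Its log2 fold change was -0.41 (SE 0.11, adjusted p = 0.0396 by edgeR), and 9.89% of its exon bases are shared with GBP7. GBP1 stood at 60.4, 59.9 and 69.5 CPM against 59.2, 48.0 and 51.1 CPM. GBP1 missed the threshold by little (log2 fold change -0.26, SE 0.07, adjusted p = 0.0519 by edgeR). MX1, whose product blocks influenza virus replication, stood at 8.74, 9.06 and 10.1 CPM against 8.84, 6.50 and 5.87 CPM (log2 fold change -0.38, SE 0.13, adjusted p = 0.103 by edgeR). MX2, whose product acts against HIV, stood at 11.8, 11.2 and 13.3 CPM against 11.6, 6.78 and 6.11 CPM (log2 fold change -0.54, SE 0.17, adjusted p = 0.0706 by edgeR). In both MX genes LX-2FAP replicate 1 was within the range of the controls and replicates 2 and 3 were below it. Without LX-2FAP replicate 1, GBP1, MX1 and MX2 were called lower, with log2 fold changes of -0.59 for MX1 and -0.91 for MX2.

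None of the 5 genes of the ISG15 conjugation system was called. This system attaches ISG15 to proteins through the E2 enzyme UBE2L6 and the ligase HERC5, and USP18 removes it and dampens receptor signalling. UBE2L6 stood at 72.8, 63.1 and 70.5 CPM in LX-2Vector replicates 1 to 3 and at 67.6, 59.4 and 56.0 CPM in LX-2FAP replicates 1 to 3 (log2 fold change -0.17, SE 0.07, adjusted p = 0.141 by edgeR). The groups overlapped for UBE2L6, and its value became -0.07 after removal of the GC trend. USP18 had a log2 fold change of -0.20 (SE 0.11) with groups apart, but 18.3% of its 75-base words also occur in USP41. ISG15 itself had a log2 fold change of -0.01 (SE 0.07), which became 0.15 after removal of a GC trend. HERC5 had a log2 fold change of -0.11 (SE 0.07) and HERC6 of 0.01 (SE 0.05).

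Of the 4 transcription factors, STAT2 was called lower. STAT2 (ENSG00000170581), the subunit of ISGF3 that carries its activation domain, stood at 132.4, 134.1 and 133.1 CPM in LX-2Vector replicates 1 to 3 and at 123.3, 111.7 and 110.4 CPM in LX-2FAP replicates 1 to 3. The control libraries were almost level and all LX-2FAP libraries lay below them (log2 fold change -0.21, SE 0.05, adjusted p = 0.022 by edgeR). IRF1, a factor induced by interferon γ, stood at 36.8, 37.8 and 43.2 CPM against 37.1, 31.3 and 33.2 CPM (log2 fold change -0.21, SE 0.07, adjusted p = 0.11 by edgeR). The groups of IRF1 overlapped, and 22% of its exon bases overlap transcripts of the other strand. IRF9, the DNA-binding subunit of ISGF3, had a log2 fold change of -0.18 (SE 0.15), with 48.4% of its exon bases shared with the locus AL136295.5. IRF7, which amplifies type I interferon transcription, had a log2 fold change of -0.02 (SE 0.12), which became 0.17 after removal of the GC trend.

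The chemokine genes CXCL10 and CXCL11, which attract T cells, were too low to test. CXCL10 counts were 6, 2 and 6 in the LX-2Vector libraries and 4, 5 and 1 in the LX-2FAP libraries, in order of replicate. CXCL11 counts were 7, 1 and 10 against 15, 1 and 5. A difference in either gene was not detectable at this depth.

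The remaining 14 genes encode induced proteins of varied function, and 13 of them were tested, with XAF1 and IFI44L called lower and IFI44 called higher. XAF1 (ENSG00000132530), a gene that promotes apoptosis, stood at 3.82, 3.65 and 5.50 CPM in LX-2Vector replicates 1 to 3 and at 3.30, 1.89 and 2.29 CPM in LX-2FAP replicates 1 to 3. Its log2 fold change of -0.77 (SE 0.20, adjusted p = 0.0401 by edgeR) was the most negative of the 44. The noncoding gene PRAL covers 38.3% of the XAF1 exon bases on the other strand, and whether the counting used strand was not given in the sources used here.

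IFI44L and IFI44 lie side by side on chromosome 1 and moved in opposite directions. IFI44L (ENSG00000137959, GRCh38 chromosome 1, 78619922 to 78646145) stood at 5.34, 5.64 and 6.96 CPM in LX-2Vector replicates 1 to 3 and at 5.17, 2.72 and 2.86 CPM in LX-2FAP replicates 1 to 3. The log2 fold change was -0.70 (SE 0.20), with an edgeR adjusted p of 0.04995 at the very edge of the threshold, and -1.09 without LX-2FAP replicate 1. With the replicate number as a block (replicate block) it was the 1 gene no longer called. IFI44 (ENSG00000137965, chromosome 1, 78649796 to 78664078) stood at 69.4, 69.5 and 76.7 CPM against 88.1, 79.0 and 81.9 CPM. All LX-2FAP libraries lay above all controls (log2 fold change 0.21, SE 0.05, adjusted p = 0.0384 by edgeR). IFI44 was called under 6 of 15 alternatives, and not with library size alone or after removal of a GC trend. OAS2 was also called under 6, and the remaining genes called lower under 7 to 11 of the 15. The ratio of IFI44L to IFI44 within a library, which does not depend on the scaling between libraries, was 0.0769, 0.0812 and 0.0907 in LX-2Vector cells and 0.0587, 0.0345 and 0.0350 in LX-2FAP cells. This pair was picked after its values were seen, so the ratio is given without a test. Both promoters hold the ISRE core, as the stretches above show.

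Among the genes of this group that were not called, RSAD2 and SAMD9 were the 2 with an unadjusted p under 0.05 and a positive change. RSAD2, which encodes the antiviral enzyme viperin, stood at 11, 12.4 and 11.6 CPM in LX-2Vector replicates 1 to 3 and at 17.7, 12.8 and 13.2 CPM in LX-2FAP replicates 1 to 3 (log2 fold change 0.34, SE 0.11, adjusted p = 0.0888 by edgeR). The groups were apart, and LX-2FAP replicate 1 was the high library; without it the log2 fold change was 0.17. SAMD9, an antiviral and growth-restraining gene, stood at 309.5, 321.7 and 364.6 CPM against 399.6, 336.9 and 387.7 CPM, with overlapping groups (log2 fold change 0.18, SE 0.06, adjusted p = 0.113 by edgeR). CMPK2, a mitochondrial nucleotide kinase gene that overlaps RSAD2 head to head, was too low to test, with counts of 1, 2 and 2 in the LX-2Vector libraries and of 6, 11 and 4 in the LX-2FAP libraries. Its groups did not overlap, and it was among the 4 genes called higher when no filter on low counts was used. In that fit 677 of 41175 genes were called higher.

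PARP9, PARP14, IFI35 and EPSTI1 had negative changes with an unadjusted p under 0.05 and were not called. PARP9, which encodes a macrodomain partner of the ubiquitin ligase DTX3L, stood at 55.3, 52.7 and 55.8 CPM in LX-2Vector replicates 1 to 3 and at 50.4, 47 and 47.8 CPM in LX-2FAP replicates 1 to 3 (log2 fold change -0.17, SE 0.05, adjusted p = 0.0616 by edgeR). PARP14, an ADP-ribosyltransferase gene, stood at 163.2, 168.0 and 185.4 CPM against 166.7, 134.3 and 144.6 CPM (log2 fold change -0.21, SE 0.07, adjusted p = 0.0737 by edgeR). PARP9 libraries were apart between the groups, and PARP14 libraries overlapped through LX-2FAP replicate 1. IFI35 stood at 14.5, 14.3 and 13.8 CPM against 12.8, 10.8 and 11.1 CPM (log2 fold change -0.29, SE 0.09, adjusted p = 0.0616 by edgeR). EPSTI1 stood at 7.04, 7.01 and 8.27 CPM against 6.34, 5.34 and 5.82 CPM (log2 fold change -0.34, SE 0.11, adjusted p = 0.0884 by edgeR). Both IFI35 and EPSTI1 had groups apart, and the IFI35 value became -0.17 after removal of the GC trend. The other tested genes, SAMD9L, TRIM22, IFI6 and IFI27, had log2 fold changes from -0.11 to -0.04 and overlapping groups. The value for IFI6 turned to 0.06 after removal of the GC trend, and 10.7% of the TRIM22 exon bases are shared with OR56B1.

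**Figure D3:**
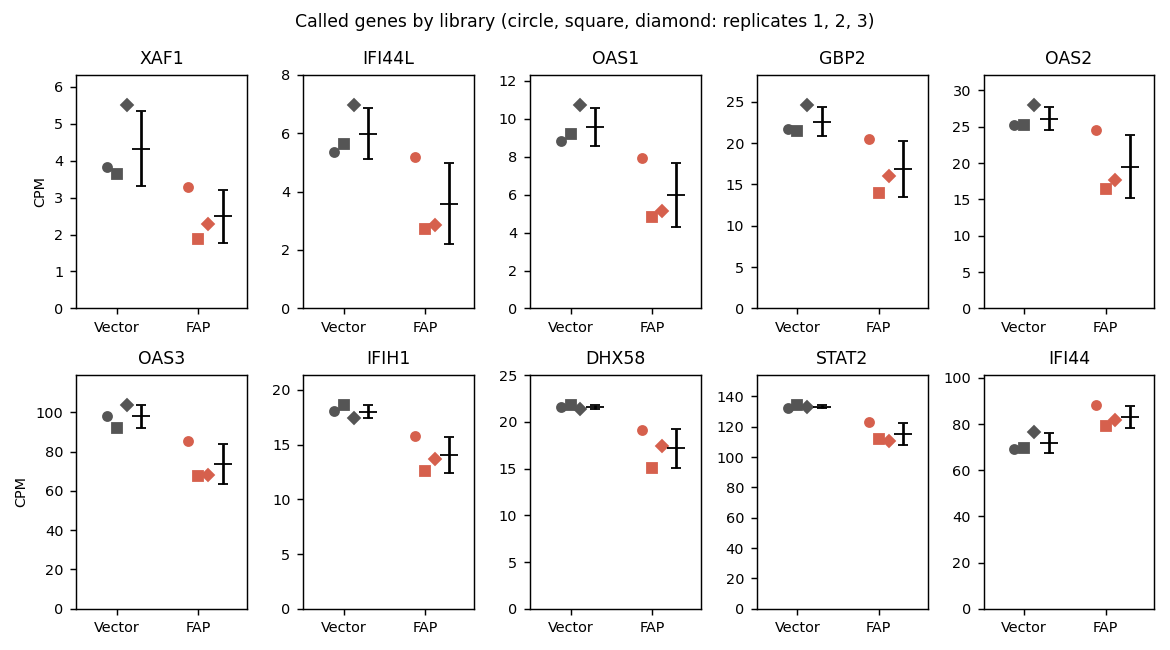
CPM of the 10 called genes in each library; grey points are LX-2Vector, red points are LX-2FAP, circles, squares and diamonds are replicates 1, 2 and 3, and bars give the mean and SD (n = 3). LX-2FAP lies below LX-2Vector in every panel but IFI44, and the red circle (LX-2FAP replicate 1) is the highest red point in every panel.

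LX-2FAP replicate 1 differed from the other LX-2FAP libraries in these genes. For the 9 genes called lower, the median log2 ratio to the LX-2Vector mean was -0.19 in LX-2FAP replicate 1, -0.67 in replicate 2 and -0.52 in replicate 3. All 9 were below the lowest control in each LX-2FAP library, which is no separate result, since they were called from these same libraries. Replicate 1 was the highest of the 3 LX-2FAP libraries for all 9, and for 35 of the 44 tested genes. Over the 44 tested genes, 16 lay below all controls and 10 above all controls in LX-2FAP replicate 1, against 29 and 5 in replicate 2 and 26 and 5 in replicate 3. These counts were not made over all tested genes. A trait of these genes thus cannot be told apart here from a shift of the whole library. LX-2FAP replicate 1 also had the lowest FAP level of the 3 LX-2FAP libraries (620.1 CPM), and its part in these differences was not tested. The summed level of the 47 genes was 2561, 2597 and 2767 CPM in LX-2Vector replicates 1 to 3 and 2761, 2402 and 2526 CPM in LX-2FAP replicates 1 to 3, which overlapped.

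**Figure D4:**
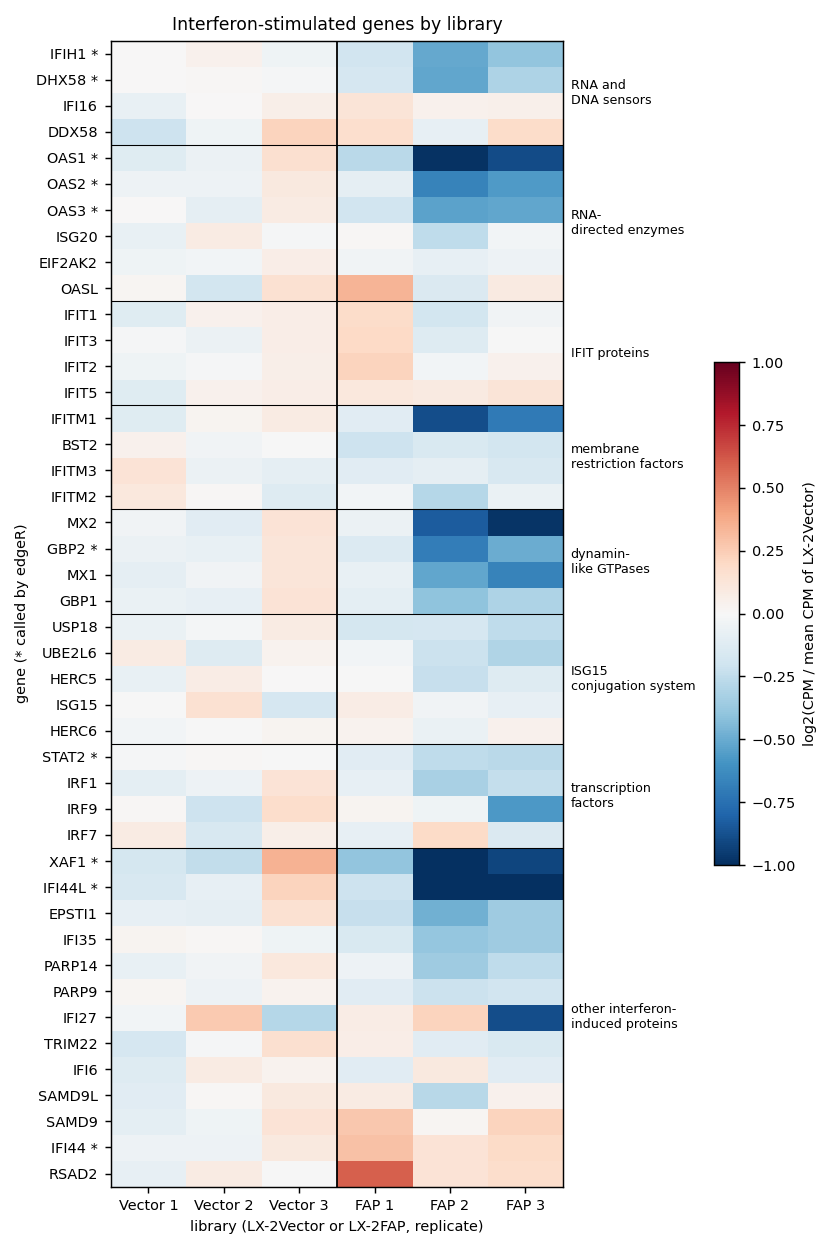
Log2 ratio of CPM to the LX-2Vector mean (colour, limited to between -1 and 1) for the 44 tested genes (rows, grouped by role) in the 6 libraries (columns); asterisks mark genes called by edgeR. Blue is strongest in LX-2FAP replicates 2 and 3 for OAS1, MX2, IFITM1, XAF1 and IFI44L, and in replicate 3 also for IFI27. The LX-2FAP replicate 1 column is paler.

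The rest of the interferon pathway was described with 116 further genes, of which 88 were tested. Of these, 7 were called lower and 1 higher, the median log2 fold change was -0.05, and 59 were negative. Over all tested genes 2.73% were called lower, 2.57% were called higher and 53% were negative, with a median of -0.01. Of 21 interferon ligand genes, IFNE, the epithelial type I interferon, was the 1 with enough counts to test, with counts of 334, 282 and 377 in the LX-2Vector libraries and of 369, 237 and 294 in the LX-2FAP libraries. IFNE was not called (log2 fold change -0.11, SE 0.11). IFNB1 had 0, 0 and 0 counts against 3, 1 and 0 counts, and IFNG had 0, 0 and 1 counts against 0 counts in every LX-2FAP library. No ligand gene other than IFNE had more than 10 counts in any library, so a difference in these was not detectable at this depth.

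Of 9 receptor and kinase genes, TYK2, the kinase bound to IFNAR1, was called lower (82.6, 83.6 and 81.6 CPM in LX-2Vector replicates 1 to 3 against 73.5, 68.8 and 74.1 CPM in LX-2FAP replicates 1 to 3, log2 fold change -0.19, adjusted p = 0.0279 by edgeR). After removal of the GC trend TYK2 was at -0.05 and not called. The list as a whole leaned the other way, with 6 of 9 positive, a median of 0.08 and 2 higher at an unadjusted p under 0.05, IFNAR1 (log2 fold change 0.11) and JAK2 (0.13), neither called. None of the STAT and IRF genes tested outside the 47 and none of the 10 adaptors and kinases of nucleic acid sensing was called by edgeR, with 4 of the latter lower at an unadjusted p under 0.05. Over all tested genes 11.6% were lower and 10.5% higher at that unadjusted threshold. Of 7 negative regulators, PTPN11, the phosphatase SHP2, was called higher (542.2, 571.4 and 551.3 CPM against 597.6, 653.3 and 634.2 CPM, log2 fold change 0.18, adjusted p = 0.0233 by edgeR).

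Of 61 other interferon-induced genes, 56 were tested and 6 were called lower by edgeR, with none called higher. At an unadjusted p under 0.05, 15 were lower and 1 higher, against 11.6% and 10.5% of all tested genes. The called shares of all tested genes were 2.73% lower and 2.57% higher. DTX3L, the ubiquitin ligase that pairs with PARP9, stood at 90.1, 91.8 and 97.6 CPM in LX-2Vector replicates 1 to 3 and at 78.7, 76.3 and 77.7 CPM in LX-2FAP replicates 1 to 3 (log2 fold change -0.26, adjusted p = 0.00815 by edgeR). The other 5 were HELZ2, a nuclear receptor coactivator gene (-0.35), RNF213, a large ubiquitin ligase gene (-0.28), TAPBP, which encodes tapasin of the peptide-loading complex (-0.29), LGALS3BP, which encodes a secreted glycoprotein (-0.23), and NLRC5, the activator of MHC class I genes (-0.31). Each of these values is a log2 fold change of LX-2FAP over LX-2Vector. After removal of the GC trend DTX3L and RNF213 were still called, and HELZ2 (-0.17), TAPBP (-0.18), LGALS3BP (-0.10) and NLRC5 (-0.20) were not. When replicate 1 of the LX-2FAP libraries was left out, 14 pathway genes and 5.62% of all genes were called lower. Leaving out replicate 2 gave 1 pathway gene, with 0.341% of all genes called lower. Leaving out replicate 3 gave 0, with 0.0638% of all genes called lower.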

How the data were processed

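RNA sequencing libraries of LX-2Vector and LX-2FAP cells (n = 3 each) were grouped by sample title. The authors deposited whole-number counts per gene, not normalized, and FPKM values that they computed from count and gene length. The submitters' processing notes name HISAT2 2.0.5, featureCounts 1.5.0-p3, DESeq2 1.16.1, edgeR and the build hg18; the table holds no coordinates, and the strand setting was not given in the sources used here. The labels describe ribosomal RNA depletion and the methods also poly(A) isolation. Coordinates and shared exons were taken from GENCODE (GRCh38), which held all 47 genes.

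Counts were tested with edgeR 4.0.16 (quasi-likelihood, TMM, default filter with a minimum count of 10 and a minimum total of 15), without covariates and 2-sided, with Benjamini-Hochberg adjustment over all genes tested. Standard errors were derived from the test statistic. The procedure was tested on simulated libraries drawn independently, with none shifted as LX-2FAP replicate 1 was, so that test does not bear on the calls reported here. With 3 libraries against 3, an exact permutation test cannot give a p below 0.1. Levels are CPM (TMM) within a gene and FPKM between genes. Counts of libraries in a group differed beyond sampling error (chi-square over degrees of freedom 2.06 to 5.02), which repeat libraries of 1 culture could also show, and each library was counted as 1 sample. Alternatives were DESeq2 1.42.0 (Wald test; size factors), library size alone, other filters, limma-trend (limma 3.58.1) on log2(FPKM + 1) or with 0.1 in place of 1, a replicate block, removal of a GC trend (loess, span 0.5), other thresholds and each library left out.

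The genes, the pathway lists and the markers were chosen with earlier results of these data known. Values per library are given for FAP, called genes, genes with an unadjusted p under 0.05 and the 5 with the highest mean FPKM; pathway genes are named when called. Some values that the lists cover are not reported here. CMPK2, the chemokines, IFNB1, IFNG and the genes given by their fold change alone were added to account for every member or list.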

Additional observations from a re-analysis of the deposited data

How the results depend on the processing

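Against 9 genes called lower and 1 called higher, the counts were 14 and 0 with library size alone, 16 and 4 with no filter on low counts, 1 and 0 at an adjusted p under 0.01, and 16 and 2 at an adjusted p under 0.1. The share of all genes called lower was 2.73% in the main fit, 4.43% with library size alone and 2.26% (of 41175 genes) with no filter. Called higher were 469 of 18275 genes in the main fit, 239 of 18275 with library size alone and 677 of 41175 with no filter. Neither background was computed at the other thresholds. With limma-trend on log2(FPKM + 1) and on log2(FPKM + 0.1) no member and no pathway gene was called (0 lower and 0 higher in each). That test called 2 of all 18275 genes with either pseudocount. At an unadjusted p under 0.05, 22 and 21 members were lower, and the share of all genes was not computed. Removal of a GC trend left 7 members lower and 0 higher, and 2 pathway genes lower. In that fit 1.07% of all genes were called lower, and 588 of 18275 were called higher. The DESeq2 Wald test called 9 lower, 7 of them shared with edgeR, and 2.23% of all genes lower. Over the fits that each left out 1 library, members called lower ranged from 0 to 18, members called higher from 0 to 2, pathway genes called lower from 0 to 14 and pathway genes called higher from 0 to 1. In the same fits 0.0638% to 5.62% of all genes were called lower, and 14 (of 18822) to 892 (of 18794) genes were called higher. The causes of these shifts were not tested.

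With the replicate number as a block (replicate block), 8 members were called lower and 1 higher. In that fit 2.79% of all genes were called lower, and 465 of 18275 were called higher. Deviations of libraries with the same number correlated at -0.04, 0.04 and -0.01, so the numbers were not taken to pair the samples, and the GC correction together with the block was not run. The median log2 fold change of the members was negative under all alternatives, between -0.19 and -0.08. The median over all tested genes moved too, between -0.04 (library size alone) and 0.03 (GC trend removed), against -0.01 in the main fit. No call reversed its direction, which is no separate result, since the alternatives used the same libraries. With 3 libraries in a group and changes mostly under 0.5 on the log2 scale, differences in genes with few counts, such as CXCL10 and CXCL11, were not detectable at this depth. CMPK2 was left untested by the filter on low counts.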

Other observations

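Several of these genes sit next to each other in the genome (14 neighbouring pairs at most 100000 bases apart in GENCODE, GRCh38), and neighbours did not always share a call. OAS1, OAS3 and OAS2 lie within 1 cluster on chromosome 12 with gaps of 5129 and 5145 bases, and all 3 were called lower. IFIT2, IFIT3, IFIT1 and IFIT5 form a cluster on chromosome 10 in which none was called. MX2 and MX1 on chromosome 21 (gap 10913 bases) had log2 fold changes of -0.54 and -0.38, neither called. SAMD9 and SAMD9L on chromosome 7, 12031 bases apart, had log2 fold changes of 0.18 and -0.04. The smallest gap between separate neighbours was that between IFI44L and IFI44, 3650 bases, and this pair had calls in opposite directions.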
